A study of Mus musculus with 12 samples.

Results

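Oxidative phosphorylation genes were taken from a gene count table of mouse liver by name and by genome: every gene whose symbol begins with the subunit names of complex I (Ndufa, Ndufb, Ndufc, Ndufs or Ndufv with a digit), complex II (Sdha to Sdhd), complex III (Uqcr), complex IV (Cox4 to Cox8) or ATP synthase, also called complex V (Atp5), and every protein-coding gene of the mitochondrial chromosome. The rule found 104 of the 27179 genes in the table. Of these, 91 lie on nuclear chromosomes (42 of complex I, 4 of complex II, 9 of complex III, 18 of complex IV and 18 of complex V) and 13 on the mitochondrial chromosome (7, 0, 1, 3 and 2 in the same order). The rule reads symbols and genome position, and it was drawn up with earlier results of these data known.

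The livers, 3 in each of 4 groups, came from young adult male mice that ate a regular chow diet (CD) or a low-protein diet (LPD), from a week before injection until harvest. The samples titled as chow diet carry HPD in the column names of the count table, letters that the study uses for a separate high-protein diet, and the titles were followed here. Sleeping Beauty hydrodynamic tail vein injection, which places plasmids in a fraction of hepatocytes where a transposase inserts them, delivered human c-MET together with ΔN90-β-catenin (c-MET/β-catenin) or the empty vector (Vec). The sample titles call the controls WT, and the name Vec and the vector injection are taken from the study. Each diet thus had a Vec group and a c-MET/β-catenin group. All groups were harvested when the CD c-MET/β-catenin mice reached their end point, and the oncogene pair induces liver tumours, so those CD livers were at an end stage of tumour growth while the LPD c-MET/β-catenin livers were taken at that same time and not at an end point of their own. The share of tumour in each library is not given in the sources used here, and a change within cells and a different share of tumour cannot be told apart in these comparisons. The EF1α promoter that drives both oncogenes is active in most cell types, and RNA was made from snap-frozen liver, so each library can mix tumour with other liver cells, although its label gives the cell type as hepatocyte. In such bulk samples, fewer cells of a type and less RNA per cell cannot be told apart.

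Oxidative phosphorylation passes electrons from NADH, through complex I, and from succinate, through complex II, to ubiquinone, then through complex III and cytochrome c to complex IV, where oxygen is reduced to water. Complexes I, III and IV pump protons out of the mitochondrial matrix, and ATP synthase makes ATP as protons flow back. All complexes except complex II combine subunits of both genomes, and hepatocytes, which hold many mitochondria, use their ATP for glucose, urea and lipid metabolism.

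The 12 libraries held 19476209 to 31990267 counts. The labels number the livers of a group and do not say that each is a separate animal, so p-values measure the spread between these samples. Levels are in CPM, the counts relative to library size after trimmed mean of M values (TMM) scaling, each group's libraries are given in the order of their replicate numbers, and fold changes are log2 values with standard errors from edgeR's quasi-likelihood fit. A gene is called higher or lower where that test's p, after Benjamini-Hochberg adjustment over the 13947 genes tested, was under 0.05. Of the 104 genes, 92 (80 nuclear and 12 mitochondrial) had enough counts to be tested. The others, with total counts over all 12 libraries, were mt-Atp8 (64), Cox4i2 (62), Cox7a2 (36), Cox6a2 (19), Ndufb4c (9), Ndufa11b (7), Cox8b (6), Atp5c1-ps (6), Sdhd (5), Uqcr11 (1), Cox7b2 (0) and Cox8c (0). Whether such low totals reflect the level in liver or the way reads were assigned to genes was not tested, for Sdhd, Uqcr11 and Cox7a2 among them. The header of the count table numbers the counting jobs in 3 separate ranges. CD c-MET/β-catenin replicates 1 and 2 carry the lowest numbers (154 to 155), the highest (191 to 193) belong to replicates 1 and 2 of CD Vec and to replicate 1 of LPD Vec, and the other 7 libraries lie between them (172 to 181). The CD groups thus share the middle range alone, with 1 library each, and values within it are given beside the results. What the ranges stand for is not given in the sources used here. Gene coordinates are those of GENCODE on GRCm38. Where annotated transcripts share sequence, their counts can be split, and the share of 50-base windows found elsewhere was 39.7% for Ndufs3, 37.0% for Ndufb4, 34.9% for Atp5o, 34.1% for Ndufb6, 31.1% for Ndufs5, 28.5% for Ndufa13, 27.9% for Cox7c, 25.9% for Cox5b, 24.8% for Uqcrc2, 23.8% for Atp5h, 23.4% for Ndufb9 and 20.2% for Atp5j, and lower for the other nuclear genes with annotated transcripts.

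On CD, oxidative phosphorylation genes were lower in c-MET/β-catenin livers than in Vec livers across all 5 complexes and both genomes. Of the 92 tested, 77 fell and 1, Ndufa4l2, rose, and 14 did not pass the test. Among all genes tested, 16.7% fell and 18.7% rose. The median log2 fold change was -0.81 for the 92 genes and -0.01 for all genes tested, and 89 of the 92 lay below 0. In 83 of the 92, all 3 c-MET/β-catenin libraries were below all 3 Vec libraries, which held for 20.4% of all genes tested. The 68 nuclear genes that fell were at 0.38 to 0.75 of their Vec level by the fit. Within the middle range of header numbers, CD c-MET/β-catenin replicate 3 was below CD Vec replicate 3 in 90 of the 92 genes, with a median log2 difference of -0.55, while 48.3% of all genes tested were lower there. With a term for the header range in the fit, 10 of the 92 were called lower (Ndufa9, Ndufb8, Ndufb9, Ndufv1, Sdhb, Uqcrc2, Uqcrfs1, Cox7b, Atp5pb and mt-Co3) and none higher, at a median of -0.60, and over all genes that fit called 642 higher and 303 lower. Scaling by total counts alone raised the median of all genes to 0.28. Over all genes that scaling called 4469 higher and 1201 lower, in place of 2603 and 2330, and of the 92 it called 58 lower and 1 higher at a median of -0.52. The study's discussion describes more oxidative phosphorylation in oncogene-expressing hepatocytes on CD, from single-nucleus RNA sequencing. Those nuclei were taken sooner after injection, and the study set such cells against other hepatocytes of injected mice. These bulk livers are thus a different measure, time and comparison.

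**Figure D1:**
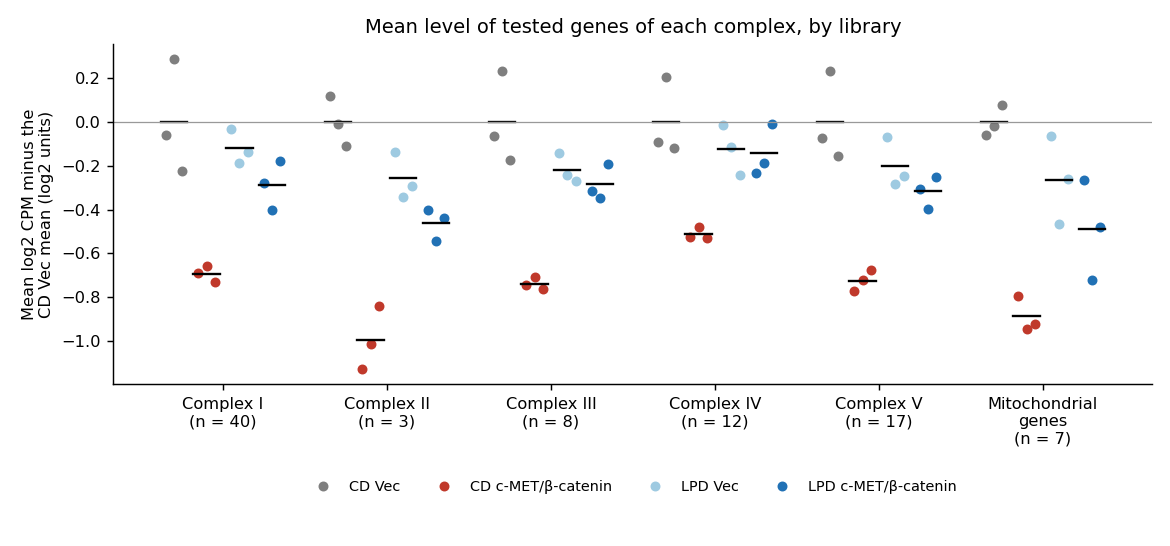
Mean level of the tested nuclear genes of each complex, and of the 7 mitochondrial genes with over 300000 counts (a limit set after the totals were seen), in each library, as mean log2 CPM minus the mean of the CD Vec libraries (y axis, log2 units), with 1 point per library. The 3 CD c-MET/β-catenin libraries lie lowest in every column, and every LPD c-MET/β-catenin library lies above them and below the CD Vec mean.

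The mean log2 CPM of the 80 tested nuclear genes showed the same in single libraries. Relative to the CD Vec mean, the CD Vec libraries were at -0.06, 0.25 and -0.18, the CD c-MET/β-catenin libraries at -0.70, -0.66 and -0.70, the LPD Vec libraries at -0.05, -0.21 and -0.19, and the LPD c-MET/β-catenin libraries at -0.29, -0.37 and -0.18. The CD c-MET/β-catenin libraries thus lay below every other library, by more than the pooled standard deviation within groups of 0.13, and CD Vec replicate 2 lay highest.

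Counts of the 13 mitochondrial protein-coding genes made up 4.16% ± 0.269 (SD, n = 3) of all counts in CD Vec and 2.68% ± 0.063 in CD c-MET/β-catenin. On LPD they made up 3.70% ± 0.346 with Vec and 3.42% ± 0.486 with c-MET/β-catenin. The 91 nuclear genes made up 1.28% ± 0.101, 0.91% ± 0.0316, 1.21% ± 0.037 and 1.18% ± 0.0297 in the same order (SD, n = 3 each). On CD, the highest c-MET/β-catenin library was below the lowest Vec library on both shares, and on LPD the ranges of the mitochondrial shares overlapped. The ratio of mitochondrial to nuclear counts was 3.27 ± 0.478, 2.95 ± 0.141, 3.07 ± 0.224 and 2.88 ± 0.37 in that order (SD, n = 3 each), differences that did not exceed the spread within CD Vec.

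**Figure D2:**
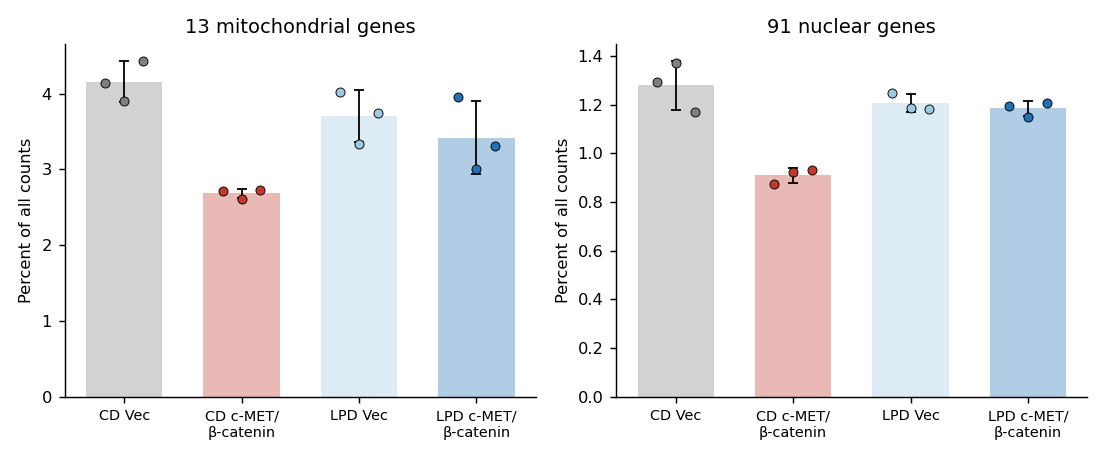
Percent of all counts of a library taken by the 13 mitochondrial protein-coding genes and by the 91 nuclear genes (y axes, percent of all counts), with 1 point per library and a bar at each group mean. On CD, the c-MET/β-catenin libraries held 2.61% to 2.72% mitochondrial counts and the Vec libraries 3.90% to 4.43%.

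In complex I, the entry point for electrons from NADH, 33 of the 40 tested nuclear genes fell on CD, with log2 fold changes of -1.42 to -0.42. By the rule that names genes with a mean of at least 5 CPM, the largest falls were those of Ndufb3 and Ndufb9, accessory subunits of the membrane arm. Ndufb9 (chr15:58933801-58939516) was at 245, 309.5 and 218 CPM in CD Vec and at 107, 110.5 and 113 CPM in CD c-MET/β-catenin, and on LPD it was at 246, 215 and 214 CPM in Vec and 196, 172 and 211 CPM in c-MET/β-catenin. Its CD libraries did not overlap, and its log2 fold change on CD was -1.23 ± 0.14 (adjusted p = 9.69e-05). Ndufb3 was at 66.1, 98.6 and 59.1 CPM in CD Vec and 30.6, 30.3 and 33.4 CPM in CD c-MET/β-catenin, a log2 fold change of -1.25 ± 0.17 (adjusted p = 0.000231). CD Vec replicate 2 was the highest library for both genes, and all c-MET/β-catenin libraries on CD lay below every other library. Among the catalytic subunits, Ndufv1, which binds FMN and oxidises NADH, changed by -0.82 ± 0.10 (adjusted p = 0.000155), and its partner Ndufv2 by -0.74 ± 0.13 (adjusted p = 0.001). Ndufs1, the iron-sulphur subunit that takes the electrons onward, changed by -0.91 ± 0.12 (adjusted p = 0.000247), and Ndufs7, which carries the last iron-sulphur cluster before ubiquinone, by -1.003 ± 0.19 (adjusted p = 0.00161).

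Not all complex I genes passed on CD. Ndufs4, an accessory subunit of the NADH-oxidising module, was at 68.7, 82.5 and 65.6 CPM in CD Vec and 66.8, 66.3 and 66.8 CPM in CD c-MET/β-catenin, with a log2 fold change of -0.12 ± 0.10 (adjusted p = 0.418), and the groups overlapped. It was picked out after its values were seen. Ndufa2, Ndufa7, Ndufa8, Ndufs5-ps and Ndufs6b also missed the threshold, with log2 fold changes of -0.45, -0.23, -0.32, -1.06 and -0.55.

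Ndufa4 and Ndufa4l2 are paralogs, of which the first, counted here in complex I by its name, is now placed in complex IV and the second is a known target of hypoxia-inducible factor. Ndufa4 was at 281, 373 and 261 CPM in CD Vec and 161, 169.9 and 169.8 CPM in CD c-MET/β-catenin, a log2 fold change of -0.87 ± 0.15 (adjusted p = 0.00087). Ndufa4l2 (chr10:127509274-127517154) was at 1.68, 1.02 and 2.08 CPM and 12.7, 2.24 and 1.83 CPM in the same groups, with a log2 fold change of 1.81 ± 0.63 (adjusted p = 0.0418). CD c-MET/β-catenin replicate 1 stood far above every other library, and without it the log2 fold change of Ndufa4l2 was 0.35 and the adjusted p 0.443.

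Complex II, which also catalyses a step of the tricarboxylic acid cycle, had a median log2 fold change of -0.95 on CD, against -0.82 to -0.75 for the nuclear genes of the other complexes. All 3 tested genes fell. The fourth, Sdhd, had 5 counts over all libraries, too few to test, and whether its level in liver is that low was not tested. The iron-sulphur subunit Sdhb (chr4:140961271-140979198) was at 301, 301 and 248 CPM in CD Vec and 95.8, 99.8 and 127 CPM in CD c-MET/β-catenin. On LPD it was at 221, 185 and 197 CPM in Vec and 186, 137 and 168 CPM in c-MET/β-catenin. The CD c-MET/β-catenin libraries lay below all others, and the log2 fold change on CD was -1.40 ± 0.16 (adjusted p = 8.27e-05). The flavoprotein Sdha, which holds the succinate site, was at 858, 591 and 706 CPM in CD Vec and 341, 376 and 402 CPM in CD c-MET/β-catenin, and its log2 fold change was -0.95 ± 0.15 (adjusted p = 0.000635). Sdhc, a membrane anchor, changed by -0.65 ± 0.12 (adjusted p = 0.00131). Relative to the CD Vec mean, the mean log2 CPM of the tested complex II genes was at -1.13, -1.01 and -0.84 in the CD c-MET/β-catenin libraries and at -0.40, -0.54 and -0.44 in the LPD c-MET/β-catenin libraries.

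In complex III, 7 of the 8 tested nuclear genes fell on CD, with log2 fold changes of -0.96 to -0.49, and the exception was the pseudogene Uqcrh-ps1. Uqcrfs1 (chr13:30540312-30545316), the Rieske iron-sulphur protein, was at 245, 267 and 214 CPM in CD Vec and 124, 119.9 and 129 CPM in CD c-MET/β-catenin, a log2 fold change of -0.96 ± 0.12 (adjusted p = 0.000172). The core proteins Uqcrc1 and Uqcrc2 changed by -0.93 ± 0.12 (adjusted p = 0.000174) and -0.93 ± 0.12 (adjusted p = 0.000131). The small subunits Uqcrq and Uqcr10, the most abundant nuclear genes of the complex per kilobase of transcript (187 and 174 CPM per kb over all libraries), changed by -0.49 ± 0.17 (adjusted p = 0.0382) and -0.73 ± 0.16 (adjusted p = 0.0046). The catalytic and core subunits of complex III thus had larger falls than its small subunits, by values alone, since differences between genes were not tested.

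In complex IV, which reduces oxygen, 9 of the 12 tested nuclear genes fell on CD, with log2 fold changes of -1.02 to -0.61. Cox7c (chr13:86044798-86046795), a small subunit, was at 134, 171 and 119 CPM in CD Vec and 72.2, 66.4 and 71.4 CPM in CD c-MET/β-catenin, with a log2 fold change of -1.02 ± 0.14 (adjusted p = 0.000321). Cox7b, at 161, 201 and 143 CPM in CD Vec and 84.7, 85.6 and 80.1 CPM in CD c-MET/β-catenin, changed by -1.01 ± 0.14 (adjusted p = 0.000285), and Cox5b and Cox6c by -1.01 and -0.98. None of these small subunits overlapped between the CD groups.

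Several complex IV subunits have a form made in most tissues, liver included, and another made mainly in heart and skeletal muscle, lung or, for Cox6b2, testis. For subunits 4, 6a, 6b and 8, the widely made forms were the abundant ones in these libraries and fell on CD. Cox4i1 was at 509.6, 683 and 446 CPM in CD Vec and 328, 338 and 309 CPM in CD c-MET/β-catenin, a log2 fold change of -0.75 ± 0.16 (adjusted p = 0.00417). Cox6a1, Cox6b1 and Cox8a changed by -0.61 ± 0.14, -0.78 ± 0.14 and -0.84 ± 0.15 (adjusted p = 0.00557, 0.00127 and 0.0012). Their counterparts Cox4i2, Cox6a2 and Cox8b had the low total counts given above and were not tested, and Cox6b2 and Cox7a1, at means of 0.639 and 1.54 CPM, had log2 fold changes of 0.97 ± 0.47 and 0.53 ± 0.37 that did not pass (adjusted p = 0.126 and 0.295). Cox7a2, the form of most tissues, had 36 counts in all libraries together. Cox7a2l (chr17:83501917-83514333), which joins complexes III and IV into supercomplexes, was at 64.1, 82.8 and 71.4 CPM in CD Vec and 75.04, 73.2 and 65.8 CPM in CD c-MET/β-catenin. Those groups overlapped, and the log2 fold change was -0.03 ± 0.12 (adjusted p = 0.88).

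In ATP synthase, 16 of the 17 tested nuclear genes fell on CD, with log2 fold changes of -0.95 to -0.53. Atp5a1 and Atp5b encode the alpha and beta subunits that form the catalytic head, and were the most abundant nuclear genes of the complex per kilobase (344 and 297 CPM per kb over all libraries). With the longest transcript as the length, Atp5b and Atp5g3 led instead. Atp5a1 was at 1418, 1274 and 1260 CPM in CD Vec and 727, 690.4 and 751 CPM in CD c-MET/β-catenin, a log2 fold change of -0.87 ± 0.12 (adjusted p = 0.000321). Atp5b changed by -0.60 ± 0.13 (adjusted p = 0.00435) and the gamma subunit Atp5c1, the central shaft, by -0.74 ± 0.12 (adjusted p = 0.000597). In the peripheral stalk, Atp5h changed by -0.95 ± 0.17, Atp5pb by -0.87 ± 0.12, Atp5j by -0.84 ± 0.14 and Atp5o by -0.85 ± 0.13 (adjusted p = 0.00107, 0.000223, 0.000967 and 0.000563). Every catalytic, shaft and stalk subunit named here fell.

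The proton-carrying ring of ATP synthase is made of subunit c, and 3 genes, Atp5g1, Atp5g2 and Atp5g3, encode the same mature protein. Atp5g3 (chr2:73908447-73912464) was at 505, 593 and 469 CPM in CD Vec and 290.0, 270.2 and 277 CPM in CD c-MET/β-catenin, a log2 fold change of -0.91 ± 0.13 (adjusted p = 0.000353). Atp5g1 changed by -0.81 ± 0.14 (adjusted p = 0.000924). Atp5g2 was at 45.4, 54.1 and 41.9 CPM and 40.5, 39.1 and 38.9 CPM in the same groups, with a log2 fold change of -0.25 ± 0.11 (adjusted p = 0.0943), and was the 1 tested nuclear gene of the complex that did not pass. Whether Atp5g2 differed from the other 2 genes was not tested.

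**Figure D3:**
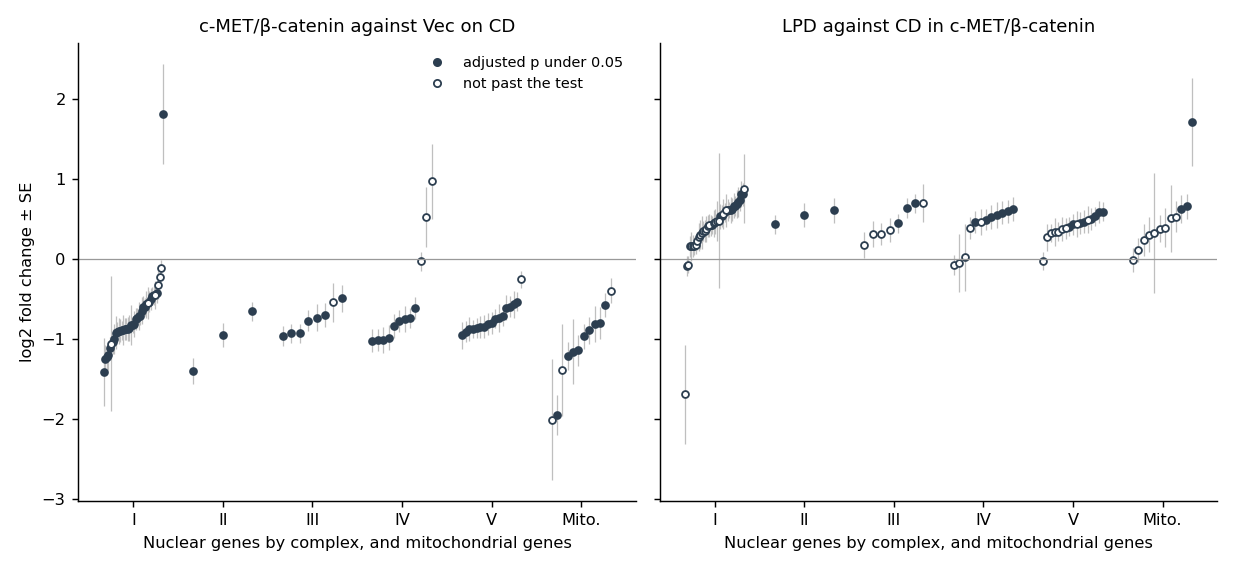
Log2 fold change with its standard error (y axes) of each tested gene, by complex for nuclear genes and together for mitochondrial genes. The comparisons are the injection on CD, and LPD against CD in c-MET/β-catenin. Nearly all points lie below 0 in the CD comparison (89 of 92) and above 0 for the diet in c-MET/β-catenin (85 of 92).

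The 13 mitochondrial protein-coding genes are transcribed as long precursors from the circular genome, and 9 of the 12 tested fell on CD, with log2 fold changes of -1.95 to -0.57. By the counts as deposited, the most abundant genes of the whole set per kilobase were mt-Co1 and mt-Cytb (7620 and 7270 CPM per kb over all libraries), followed by mt-Nd1 and mt-Nd2 (4460 and 3450 CPM per kb). Nuclear copies of several mitochondrial genes, mt-Co1 among them, leave this order uncertain. mt-Cytb (chrM:14145-15288), cytochrome b of complex III, was at 10370, 12420 and 11690 CPM in CD Vec and 5178, 4749 and 4941 CPM in CD c-MET/β-catenin. On LPD it was at 10590, 7592 and 9308 CPM in Vec and 8788, 6355 and 7846 CPM in c-MET/β-catenin. Its CD c-MET/β-catenin libraries lay below all others, with a log2 fold change on CD of -1.21 ± 0.17 (adjusted p = 0.000339). mt-Co1, the catalytic subunit of complex IV, was at 15970, 13650 and 16180 CPM in CD Vec and 7435, 7840 and 9424 CPM in CD c-MET/β-catenin, with a log2 fold change of -0.89 ± 0.17 (adjusted p = 0.00204). mt-Nd1 (chrM:2751-3707), of the membrane arm of complex I, was at 4787, 4739 and 5040 CPM and 4359, 3574 and 3162 CPM in the same groups. The CD groups of mt-Nd1 did not overlap, yet its log2 fold change of -0.39 ± 0.15 did not pass (adjusted p = 0.0649). Of the other complex I genes, mt-Nd2 changed by -0.96 ± 0.16, mt-Nd4 by -1.14 ± 0.20, mt-Nd5 by -0.81 ± 0.22 and mt-Nd6 by -0.80 ± 0.20 (adjusted p = 0.000671, 0.000965, 0.0138 and 0.00862). mt-Nd6 is the only 1 of the 13 on the other strand, and the strand setting of the counting is not given in the sources used here.

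Some mitochondrial genes had far fewer counts than their neighbours. Apart from mt-Atp8, with 64 counts, which overlaps mt-Atp6 on the same strand over 21.1% of its length, these have a near-identical copy in the nuclear genome over nearly their whole length. A block of unprocessed pseudogenes on chromosome 1 repeats mt-Co2, mt-Co3 and mt-Atp6 over 681, 783 and 678 bases with 0 mismatches, mt-Nd4l over 294 bases with 0 mismatches, mt-Nd4, whose counts were high, over 876 of its 1378 bases with 0 mismatches, and mt-Nd3 over 345 bases with 1 mismatch. Total counts over the 12 libraries were 18975 for mt-Co2, 4840 for mt-Co3, 2549 for mt-Atp6, 190 for mt-Nd3 and 139 for mt-Nd4l, against 784091 for mt-Nd4, 1172178 for mt-Nd1, 2196478 for mt-Cytb and 3145349 for mt-Co1. The first 60 bases of mt-Nd3 (chrM:9459-9518, plus strand) and of its copy Gm28438 (chr1:24613060-24613119, minus strand), and of mt-Co3 (chrM:8607-8666, plus strand) and its copy Gm28437 (chr1:24613912-24613971, minus strand), are printed from the GENCODE transcripts (GRCm38) to show how alike the pairs are. The capital marks the 1 difference, T3C counted from the first base of the transcript, and the mt-Co3 pair has none.
mt-Nd3: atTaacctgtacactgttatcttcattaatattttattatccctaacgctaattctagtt
Gm28438: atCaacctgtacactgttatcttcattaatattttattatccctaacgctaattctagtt
mt-Co3: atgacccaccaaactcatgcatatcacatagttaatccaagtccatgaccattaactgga
Gm28437: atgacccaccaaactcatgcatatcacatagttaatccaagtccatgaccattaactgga
How the counting treated reads that match both places is not given in the sources used here, so levels of these genes are uncertain. mt-Co3 was at 28.6, 29.1 and 53.5 CPM in CD Vec and 10.7, 10.1 and 7.94 CPM in CD c-MET/β-catenin, a log2 fold change of -1.95 ± 0.25 (adjusted p = 0.000163). mt-Co2, mt-Nd3 and mt-Nd4l changed by -0.57 ± 0.15, -1.16 ± 0.41 and -1.39 ± 0.57 (adjusted p = 0.0117, 0.0448 and 0.0787). mt-Atp6, a subunit of the proton channel of ATP synthase, was at 5.96, 8.07 and 32.0 CPM in CD Vec and 36.1, 5.07 and 6.77 CPM in LPD Vec. CD Vec replicate 3 and LPD Vec replicate 1 stood far above the rest, and the log2 fold change of mt-Atp6 on CD of -2.005 ± 0.75 did not pass (adjusted p = 0.0587).

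**Figure D4:**
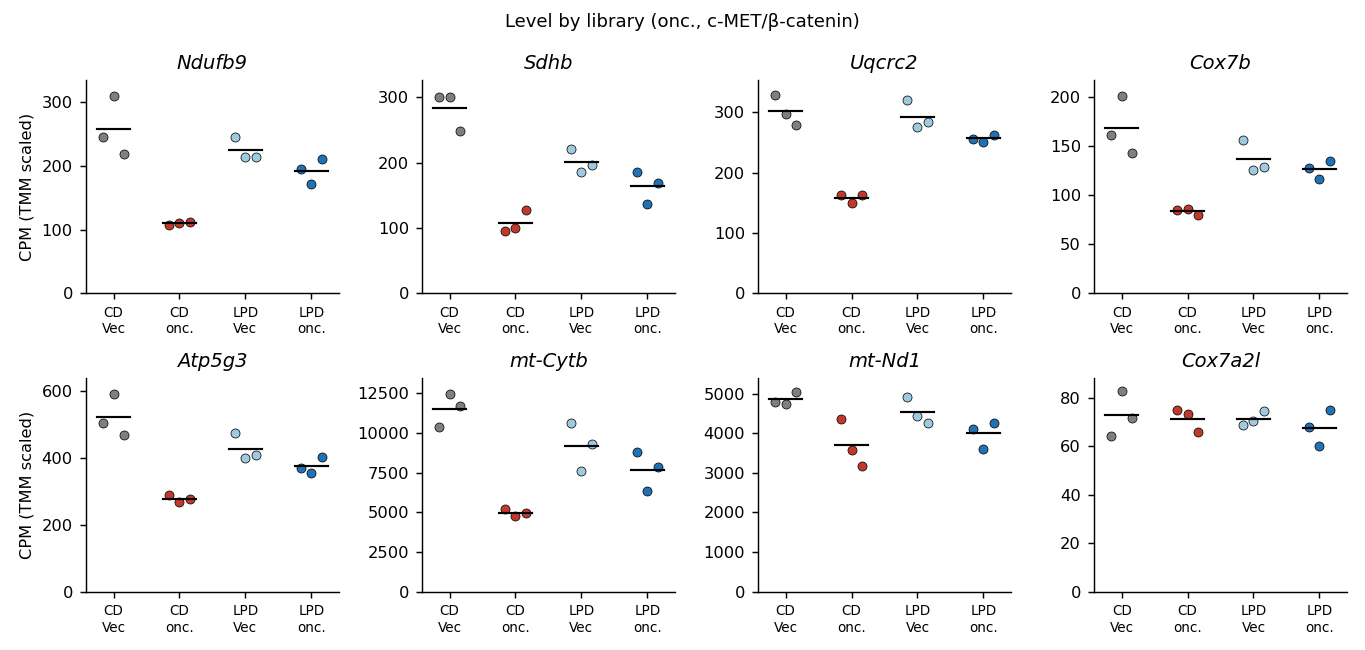
CPM (y axes, TMM scaled, from 0) in each library for a gene of each complex and mitochondrial genes, with 1 point per library and a line at each group mean. For Sdhb the CD c-MET/β-catenin libraries lie at 95.8, 99.8 and 127 CPM, below all other libraries.

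Promoter sequence was read for the 69 of 91 nuclear genes that have an entry in the RefSeq promoter table (GRCm38.p6), as 300 bases from 250 before to 50 after the start site. The motifs were chosen after earlier results were known and were searched on both strands, with no test. NRF1, a regulator of respiratory genes, has a GC-rich motif, shown in capitals in the sequences printed here, which was in 16 of the 69 windows (23.2%) and in 4.78% of the windows of all 27025 genes and 10.1% of those of tested genes. The ETS family motif CCGGAAG, read by GABP (NRF2), was in 16 of 69 (23.2%), against 9.12% of all and 17.4% of tested genes, and the YY1 motif ATGGCGG in 9 (13%), against 4.19% and 7.90%. The estrogen-related receptor motif AAGGTCA was in 8 (11.6%), against 4.66% and 3.34%, the hypoxia-inducible factor motif ACGTG in 17 (24.6%), against 19.7% and 25.4%, and the SP family motif GGGCGG in 28 (40.6%), against 35.9% and 62.2%. At least 1 of the NRF1, ETS and YY1 motifs was in 35 windows (50.7%), against 16% of all promoters and 30.8% of those of tested genes, and 34 had none. Upstream stretches free of exons, on the strand of the gene, are printed for a gene of complexes I, III, IV and V that fell on CD and holds such a motif, and for Cox7a2l, which did not pass the test and holds none of the NRF1, ETS and YY1 motifs. All lie on the minus strand, at chr16:37654454-37654618, chr4:116075072-116075268, chr5:115348982-115349129, chr11:115419963-115420127 and chr17:83514334-83514583 in the order printed, and capitals mark the NRF1 motif in Ndufb4, Cox6a1 and Atp5h and the ETS motif in Uqcrh.
Ndufb4: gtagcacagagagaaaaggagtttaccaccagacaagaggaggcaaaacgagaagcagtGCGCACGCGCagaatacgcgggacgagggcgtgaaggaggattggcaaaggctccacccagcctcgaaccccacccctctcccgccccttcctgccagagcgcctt
Uqcrh: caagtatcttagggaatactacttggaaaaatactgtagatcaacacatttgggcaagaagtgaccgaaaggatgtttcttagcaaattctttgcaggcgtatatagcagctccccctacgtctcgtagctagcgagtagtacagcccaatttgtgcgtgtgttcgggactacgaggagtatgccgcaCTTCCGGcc
Cox6a1: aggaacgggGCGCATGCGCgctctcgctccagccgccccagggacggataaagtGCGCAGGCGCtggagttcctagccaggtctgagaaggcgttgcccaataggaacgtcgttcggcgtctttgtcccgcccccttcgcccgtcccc
Atp5h: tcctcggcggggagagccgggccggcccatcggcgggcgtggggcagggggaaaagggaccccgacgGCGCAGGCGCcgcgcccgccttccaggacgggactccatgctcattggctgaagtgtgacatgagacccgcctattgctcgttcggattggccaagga
Cox7a2l: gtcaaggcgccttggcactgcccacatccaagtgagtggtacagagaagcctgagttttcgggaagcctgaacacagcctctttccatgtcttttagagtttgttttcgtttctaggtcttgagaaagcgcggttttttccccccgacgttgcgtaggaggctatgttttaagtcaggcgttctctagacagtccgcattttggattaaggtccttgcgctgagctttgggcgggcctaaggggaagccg
The log2 fold changes on CD of these genes were -0.92 ± 0.20 for Ndufb4, -0.70 ± 0.15 for Uqcrh, -0.61 ± 0.14 for Cox6a1, -0.95 ± 0.17 for Atp5h and -0.03 ± 0.12 for Cox7a2l. Of the 57 genes with a window that fell on CD, 13 held the NRF1 motif (22.8%). Among the tested genes with a window that did not fall, Atp5g2 and Ndufa8 hold the NRF1 motif and Ndufs4 and Ndufa7 the YY1 motif. Cox6b2, Cox7a1 and Cox7a2l hold none of the NRF1, ETS and YY1 motifs. Motif presence was not set against the size of the change by any test.

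On LPD, the same injection gave no called change in any oxidative phosphorylation gene. Among all genes tested, 1.15% were called higher and 0.165% lower on LPD, and of the 92 none was called in either direction by edgeR or by DESeq2, with 2 at an unadjusted p under 0.05. Of the 92, 85 lay below 0, as did 6755 of all 13947 genes. The median log2 fold change of the 92 was -0.14, against 0.01 over all genes, and it was -0.03 with scaling by total counts and -0.07 with the term for the header range. Of the genes with the largest falls on CD, Sdhb changed on LPD by -0.29 ± 0.16, Ndufb9 by -0.22 ± 0.14, mt-Cytb by -0.26 ± 0.17 and Cox7b by -0.12 ± 0.14 (adjusted p = 0.545, 0.665, 0.677 and 0.874). The LPD c-MET/β-catenin libraries all lay in the middle range of header numbers, and within it 23 of the 92 genes were lower in all 3 than in both LPD Vec libraries there and 4 were higher, at a median log2 difference of -0.09, against 16.3% and 17.7% of all genes.

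In Vec livers, the diet itself gave no called change in these genes by edgeR. LPD against CD in Vec had 0.186% of all genes called higher and 0.122% lower, and 0 of the 92 called, with 10 at an unadjusted p under 0.05 and 1, mt-Co3, called lower by DESeq2. Of the 92, 86 lay below 0, as did 7542 of all 13947 genes. The median log2 fold change was -0.20 for the 92 genes and -0.03 for all genes. Sdhb changed by -0.49 ± 0.16 (adjusted p = 0.24), Ndufb9 by -0.20 ± 0.14 (adjusted p = 0.704) and mt-Cytb by -0.33 ± 0.17 (adjusted p = 0.58). Leaving out CD Vec replicate 2, the library with the highest levels of nuclear genes, moved the median of the 92 to -0.06, and it was -0.10 with scaling by total counts and -0.12 with the term for the header range. Within the middle range, 54 of the 92 genes were lower in both LPD Vec libraries than in CD Vec replicate 3 and 19 were higher, at a median log2 difference of -0.07, against 39% and 37.1% of all genes. Of the 12 mitochondrial genes 11 were lower there, at a median of -0.48, and the median of the 80 nuclear genes was -0.04.

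In c-MET/β-catenin livers, oxidative phosphorylation genes were higher on LPD than on CD. The test called 40 of the 92 higher and none lower, where 8.66% of all genes were higher and 11.3% lower, and the median log2 fold change was 0.45, against -0.01 over all genes. In 73 of the 92, all 3 LPD libraries lay above all 3 CD libraries, which held for 19.2% of all genes. The 40 were 37 nuclear genes (16 of complex I, 3 of complex II, 3 of complex III, 7 of complex IV and 8 of complex V), with log2 fold changes of 0.40 to 0.81, and mt-Nd2, mt-Cytb and mt-Nd4l. Both this contrast and the injection contrast on CD use the same CD libraries with the oncogenes, so their values are given side by side and were not correlated.

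Within complex I, Ndufb9 and Ndufb3 again led the genes named by rule, with log2 fold changes of 0.81 ± 0.14 (adjusted p = 0.0029) and 0.81 ± 0.17 (adjusted p = 0.00627). Ndufb3 was at 30.6, 30.3 and 33.4 CPM in CD c-MET/β-catenin and 57.5, 50.1 and 57.9 CPM in LPD c-MET/β-catenin, with no overlap. Sdhb and Sdha of complex II rose by 0.61 ± 0.16 (adjusted p = 0.0179) and 0.56 ± 0.15 (adjusted p = 0.0229) on the log2 scale. In complex III, Uqcrc2 was at 162, 150.3 and 163 CPM on CD and 256, 251 and 263 CPM on LPD in c-MET/β-catenin livers, with a log2 fold change of 0.69 ± 0.12 (adjusted p = 0.00207), and Uqcrfs1 changed by 0.64 ± 0.12 (adjusted p = 0.00477). Cox6c and Cox7b of complex IV changed by 0.63 ± 0.15 and 0.60 ± 0.14 (adjusted p = 0.0146 and 0.0122), and Atp5md and Atp5pb of complex V by 0.59 ± 0.14 and 0.59 ± 0.12 (adjusted p = 0.0114 and 0.0051). Among mitochondrial genes, mt-Nd2 changed by 0.66 ± 0.15 (adjusted p = 0.012), mt-Cytb by 0.63 ± 0.17 (adjusted p = 0.0243) and the low-count mt-Nd4l by 1.71 ± 0.55 (adjusted p = 0.0466).

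The count of 40 depended on single libraries and on the header range. It was 12 without LPD c-MET/β-catenin replicate 3, 21 without replicate 1 of that group, 23 and 25 without CD c-MET/β-catenin replicates 2 and 1, 60 without CD Vec replicate 2, and 0 with a term for the header range, which called 177 higher and 441 lower over all genes and left the median of the 92 at 0.40. Within the middle range, the 3 LPD libraries were all above CD c-MET/β-catenin replicate 3 in 81 of the 92 genes and all below it in 1, at a median log2 difference of 0.39, against 34.5% and 35.6% of all genes.

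The injection effects on LPD and on CD were compared directly by the injection by diet interaction, in which a positive value means a smaller fall, or a larger rise, on LPD. It was called positive for 36 of the 92 genes and negative for none, where 4.49% of all genes were called positive and 4.42% negative, and the median was 0.67 for the 92 and 0.02 for all genes. The 36 comprised 15 nuclear genes of complex I, 2 of complex II, 3 of complex III, 4 of complex IV and 9 of complex V, and mt-Nd2, mt-Cytb and mt-Co3, with log2 differences of 0.62 to 1.62. The interaction of Ndufb3 was 1.19 ± 0.23, that of Sdhb 1.10 ± 0.22, that of Ndufb9 1.01 ± 0.20 and that of mt-Co3 1.62 ± 0.35 (adjusted p = 0.0133, 0.0139, 0.0136 and 0.0176). The count fell to 4 and 5 without LPD Vec replicates 2 and 3, to 10, 21 and 5 without LPD c-MET/β-catenin replicates 1, 2 and 3, and to 18 and 12 without CD c-MET/β-catenin replicates 1 and 2. It was 14 with scaling by total counts alone and 12 with a term for the replicate number, which does not pair the libraries. With the term for the header range it was 0, at a median of 0.57, while DESeq2 called 51.

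Genes that serve the respiratory chain but do not match the names were read from lists drawn up with earlier results of these data known. On CD, Ndufab1, the acyl carrier protein that is also a complex I subunit, was at 65.4, 70.8 and 57.7 CPM in Vec and 36.0, 36.0 and 41.8 CPM in c-MET/β-catenin, with a log2 fold change of -0.77 ± 0.11 (adjusted p = 0.000295). Cyc1, cytochrome c1 of complex III, and Cycs, cytochrome c, changed by -0.91 ± 0.12 and -0.76 ± 0.15 (adjusted p = 0.000251 and 0.00198). Beside the 16.7% of all genes that fell and the 18.7% that rose on CD, 8 of 14 assembly factors for complex I fell (Ndufaf4 -1.55, Foxred1 -1.10), 0 of 4 for complex II, 3 of 6 for complex III and 8 of 19 for complex IV (Coa6 -0.94), at medians of -0.51, -0.36, -0.51 and -0.44, and none rose. Of the genes for mitochondrial RNA processing and translation 13 of 16 fell, of those for mitochondrial transcription and genome maintenance 6 of 13, of mitochondrial ribosomal proteins 17 of 47 (large subunit) and 13 of 29 (small subunit, with 1 that rose), and of those for the outer membrane and mitochondrial content 13 of 19. Their medians were -0.73, -0.51, -0.30, -0.39 and -0.43. The medians of all 5 of these lists and of the assembly lists were nearer 0 than the -0.81 of the subunit genes, by values alone.

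Other lists held genes that rose on CD, to be read beside the same shares of all genes. Atpif1, which inhibits ATP hydrolysis by ATP synthase, was at 12.4, 11.7 and 12.8 CPM in CD Vec and 28.0, 30.2 and 28.2 CPM in CD c-MET/β-catenin, and its log2 fold change was 1.23 ± 0.18 (adjusted p = 0.000376). Of the 4 ATP synthase factors outside the name pattern it was the 1 that rose, and the assembly factors Tmem70 (-0.60) and Atpaf2 (-0.40) fell. Of the 6 tested adenine nucleotide and phosphate carriers and uncoupling proteins 3 rose, Slc25a4 (by 1.86), Ucp2 (1.83) and Slc25a27 (1.27), and 2 fell, Slc25a5 (-0.51) and the phosphate carrier Slc25a3 (-0.46). Of 18 tricarboxylic acid cycle genes 11 fell, with Suclg1 at -1.08, and 2 rose, with Idh3a at 0.996. Of 13 genes of coenzyme Q synthesis 5 fell and 1 rose. Of 12 transcriptional regulators 6 fell and none rose, with Esrrg at -2.11, Ppargc1b at -1.74 and Esrra at -0.87, while Ppargc1a was at 0.69 (adjusted p = 0.0974). The median log2 fold changes were 0.77 for the carriers, -0.55 for the cycle, -0.26 for coenzyme Q synthesis and -0.19 for the regulators. Of 14 hypoxia response genes 6 rose and 2 fell. Replicate 1 of CD c-MET/β-catenin stood apart for this list, with a summed level of 3972 CPM against 1766.5 and 1623.5 CPM in the other replicates and 1597.6 to 1825.6 CPM in CD Vec. Ndrg1 was at 11.4, 7.56 and 9.74 CPM in CD Vec and 206, 33.6 and 78.8 CPM in CD c-MET/β-catenin (log2 fold change 3.47 ± 0.53, adjusted p = 0.000599).

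**Figure D5:**
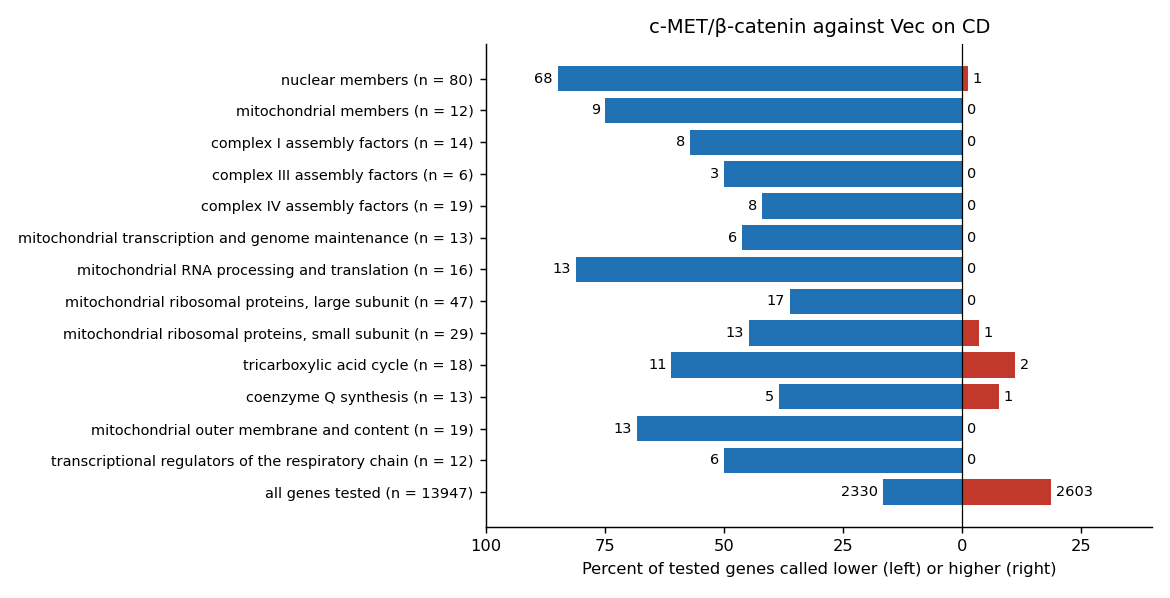
Percent of tested genes called lower (left of 0) or higher (right of 0) in c-MET/β-catenin relative to Vec livers on CD (x axis, percent). Bars are given for the nuclear genes, the mitochondrial genes, lists of related mitochondrial genes and all genes tested. The complex II assembly factors, ATP synthase factors, carriers and uncoupling proteins, and hypoxia genes are not drawn. Of the nuclear genes 85% were lower and of the mitochondrial genes 75%, while all genes tested have 16.7% lower and 18.7% higher.

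On LPD, none of these pathway genes was called for the injection, where 1.15% of all genes were called higher and 0.165% lower. For LPD against CD in c-MET/β-catenin, 8.66% of all genes rose and 11.3% fell, and the counts here are to be read beside these shares. Of the complex I assembly factors 5 of 14 rose (Ndufaf4 0.91), with 0 of 4 for complex II, 0 of 6 for complex III and 1 of 19 for complex IV. Ndufab1 (0.73), Cyc1 (0.58) and Cycs (0.63) rose, as did 6 of 16 genes of mitochondrial RNA processing and translation, 3 of 13 of mitochondrial transcription, 3 of 47 and 3 of 29 ribosomal proteins of the large and small subunit (with 1 of the large subunit that fell) and 3 of 19 of the outer membrane and content list. In the tricarboxylic acid cycle 5 of 18 rose and 2 fell, in coenzyme Q synthesis 0 of 13 rose and 2 fell, among the regulators Ppargc1b (1.42) and Esrra (0.62) rose and Ppargc1a (-1.12) fell, and among the ATP synthase factors Tmem70 (0.48) rose and Atpif1 (-0.83) fell. Of the carriers Slc25a4 (-1.54) fell and none rose, and of the hypoxia genes Ndrg1 (-2.27) and Slc2a1 (-1.83) fell and none rose.

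Beside 4.49% of all genes with a positive and 4.42% with a negative interaction, it was positive for Ndufab1, Cyc1 and 3 of 14 complex I assembly factors (Ndufaf4 1.35 ± 0.35, adjusted p = 0.0353). It was also positive for 1 of 6 complex III assembly factors, 1 of 13 genes of mitochondrial transcription, 4 of 16 of RNA processing and translation, 1 of 47 large-subunit and 1 of 29 small-subunit ribosomal proteins, 3 of 18 of the tricarboxylic acid cycle and 1 of 13 of coenzyme Q synthesis. Of 12 regulators it was positive for Esrra (0.90 ± 0.20, adjusted p = 0.0185) and of 19 outer membrane and content genes for Opa1. It was negative for Atpif1 (-0.96 ± 0.25, adjusted p = 0.0373), Slc25a4 (-1.79 ± 0.33, adjusted p = 0.0102) and Ndrg1 (-2.95 ± 0.71, adjusted p = 0.0287). No gene of the assembly lists of complexes II and IV was called.

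Markers of cell types and of proliferation were read beside 18.7% of all genes that rose and 16.7% that fell on CD. Of 7 tested hepatocyte markers 2 fell on CD and none rose, and their summed level was 98416.6 to 102309 CPM with Vec and 86975.8 to 95869.5 CPM with the oncogenes. On CD, 4 of 8 macrophage markers rose (summed 112.5 to 230.8 CPM in Vec and 231.7 to 318.5 CPM in c-MET/β-catenin), 2 of 5 cholangiocyte markers (36.8 to 46.3 and 120.9 to 381.8 CPM), 4 of 8 stellate cell and fibroblast markers, with 2 that fell (200.1 to 253.5 and 154.0 to 606.8 CPM), 2 of 3 neutrophil markers, 2 of 8 T and NK cell markers, with 1 that fell, and 2 of 3 red blood cell markers (168.6 to 221.2 and 74.2 to 266.5 CPM). None of 4 B cell markers passed, nor the 1 tested muscle marker, and 2 of 7 endothelial markers fell. All 8 proliferation genes rose on CD, from summed levels of 4.9 to 15.7 CPM with Vec to 141.3 to 205.4 CPM with the oncogenes, and the LPD groups were at 6.2 to 7.7 CPM (Vec) and 18.9 to 56.1 CPM (c-MET/β-catenin). For the injection on LPD, where 1.15% of all genes rose and 0.165% fell, 5 of the 8 proliferation genes rose and no marker of the other lists passed. For diet in Vec livers, where 0.186% of all genes rose and 0.122% fell, no gene of these lists passed. The interaction was negative for 2 of 5 cholangiocyte, 2 of 3 neutrophil, 1 of 3 red blood cell and 1 of 8 stellate cell and fibroblast markers and for 1 of 8 proliferation genes, and positive for 1 of 7 endothelial and 1 of 8 stellate cell and fibroblast markers. Over all genes the interaction was called negative for 4.42% and positive for 4.49%. In c-MET/β-catenin livers, all 8 proliferation genes, 2 of 5 cholangiocyte, 2 of 3 neutrophil, 2 of 3 red blood cell, 1 of 8 macrophage and 1 of 7 hepatocyte markers were lower on LPD than on CD, where 11.3% of all genes were lower and 8.66% higher, and no other gene of these lists passed. Stellate cell and fibroblast markers had 4 lower and 2 higher of 8, 2 of 7 endothelial and 1 of 4 B cell markers were higher, and no T and NK cell or muscle marker passed. In every library, neutrophil markers summed to at most 18.9 CPM, T and NK cell markers to 9.5 CPM, B cell markers to 4.1 CPM and muscle markers to 1.3 CPM. The part of these cell types and of proliferation in the fall of oxidative phosphorylation genes was not tested.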

How the data were processed

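RNA of 12 mouse livers, 3 in each of 4 groups given by the sample titles, was sequenced. The deposited table holds whole-number read counts per Entrez gene, which the authors made with HISAT2 (mm10) and featureCounts; versions, strand and multi-mapping settings are not given in the sources used here. The labels name an rRNA depletion kit while the study's methods describe mRNA selection, so which of them made these libraries, and with it the share of mitochondrial RNA, is unclear. The sample descriptions pair each sample titled as chow diet with a column whose name holds HPD, which the study's methods use for a high-protein diet. Samples were grouped by title, and which diet is right was not settled.

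Symbols were matched to 25275 genes through RefSeq and 18 through GENCODE, and 1886 genes had none. Counts were analysed in edgeR 4.0.16 (R 4.3.3) with TMM factors of 0.864 to 1.12 and filterByExpr, in 1 quasi-likelihood fit of all 12 libraries, with Benjamini-Hochberg adjustment over 13947 genes and a threshold of 0.05. The common dispersion was 0.0537. The scripts were tested on simulated data. No 2 replicates had counts that agreed within sampling noise. Alternatives were scaling by total counts, DESeq2's size factors, no filter, a fit to the compared groups only, DESeq2 1.42.0, a replicate block, a term for the header range, and leaving out each library. Levels were compared between genes per kilobase of transcript.

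Genes named with values were all mitochondrial genes, in each complex the 2 largest rises and falls on CD and by diet in c-MET/β-catenin livers among called genes of at least 5 CPM, all genes called for the interaction, for diet in Vec or for injection on LPD, the 2 most abundant per complex, and tissue isoforms. From the lists, up to 4 examples of the largest change were eligible. Catalytic and other subunits were added after their values were seen. The gene set, the lists and the motifs were chosen with earlier results of these data known.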

Additional observations from a re-analysis of the deposited data

Results flagged for a closer look

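For 36 genes, the injection effect differed between LPD and CD by the interaction test of edgeR (adjusted p under 0.05), with values given as the log2 effect on LPD minus that on CD. For nuclear genes of complex I the differences were 0.83 (Ndufa1), 0.81 (Ndufa4), 0.89 (Ndufa5), 0.68 (Ndufa9), 1.19 (Ndufb3), 0.76 (Ndufb5), 0.75 (Ndufb6), 0.93 (Ndufb8), 1.01 (Ndufb9), 0.67 (Ndufs1), 0.71 (Ndufs3), 0.97 (Ndufs5), 0.98 (Ndufs7), 0.68 (Ndufv1) and 0.63 (Ndufv2). For complex II they were 0.78 (Sdha) and 1.10 (Sdhb), and for complex III 0.74 (Uqcrc1), 0.74 (Uqcrc2) and 0.81 (Uqcrfs1). For complex IV they were 0.85 (Cox5b), 0.88 (Cox6c), 0.89 (Cox7b) and 0.80 (Cox7c). For complex V they were 0.64 (Atp5a1), 0.62 (Atp5c1), 0.72 (Atp5g3), 0.85 (Atp5h), 0.72 (Atp5j), 0.77 (Atp5k), 0.72 (Atp5md), 0.72 (Atp5o) and 0.70 (Atp5pb). For mitochondrial genes they were 0.88 (mt-Nd2), 0.95 (mt-Cytb) and 1.62 (mt-Co3), of which mt-Co3 shares its sequence with a nuclear copy. All 36 were positive, a smaller fall on LPD than on CD or, for Ndufa1 and Ndufs5, a value just above 0 on LPD. With a term for the header range none of the 36 was called, and without single libraries 4 to 39 genes were. Counting without strand could mix genes whose exons lie opposite another gene, which held for 39.0% of the exon length of Ndufb6, 35.6% of Atp5o, 19.7% of Uqcrc2, 12.7% of Atp5j, 12.3% of Ndufb5, 8.2% of Atp5pb, 7.0% of Cox6c, 6.2% of Ndufs1 and 0.6% to 4.1% of Atp5a1, Ndufs3, Ndufa9 and Atp5md.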

How the results depend on the processing

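On CD, the count of genes called higher went from 1 to 0 with no filter, with only the compared groups, with the replicate block and with the header range term (0 to 1 when leaving out single libraries). The 77 called lower became 10 with the header range term and 71 to 78 when leaving out single libraries. The median of -0.813 over all 92 tested genes became -0.524 with total counts, -0.602 with the header range term and -0.872 to -0.675 without single libraries. For the injection on LPD, both counts stayed at 0 under every alternative run, and the median of -0.137 became -0.025 with total counts, -0.066 with the header range term and -0.179 to -0.087 without single libraries. For diet in Vec, 1 gene was lower with no filter and with DESeq2, and 0 to 1 without single libraries, and the median of -0.200 became -0.097 with total counts, -0.118 with the header range term and -0.271 to -0.061 without single libraries. For diet in c-MET/β-catenin, the 40 called higher became 0 with the header range term and 12 to 60 without single libraries, and the count lower was 1 with DESeq2 and 0 to 1 without single libraries. The 36 genes of the interaction became 14 with total counts, 12 with the replicate block, 0 with the header range term and 4 to 39 without single libraries, and its median of 0.673 became 0.494 with total counts. Causes were not tested. Total counts moved the median of all genes by 0.288 on CD, 0.11 on LPD, 0.103 for diet in Vec, -0.075 for diet with the oncogenes, and -0.178 for the interaction.

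Replicate numbers did not pair the libraries. The correlation of deviations between same-numbered libraries was -0.183 to 0.167 over 18 pairs, and 3 of 12 libraries correlated best with their own number. With the replicate block, 75 genes were lower on CD, 31 were higher by diet in c-MET/β-catenin and 12 had a positive interaction. Over all genes it called 2422 higher and 2098 lower on CD, and 409 and 403 for the interaction.

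For the 63 single genes named by rule, 4856 of 5449 values under alternatives kept their side of the threshold, 542 lost the threshold, 51 gained it and 0 reversed. Of the 4856, 107 had the opposite sign with neither value past the threshold. The header range term ended 112 single-gene calls and the block 36. At these counts, 12 genes could not be tested for any difference.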
